A study of Mus musculus with 4 samples.

Results

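The genes described here are the laminin chains, the nidogens, perlecan, agrin and dystroglycan, and the integrin subunits, 35 genes of the 46983 gene identifiers in the expression tables. They were chosen by gene name: 10 laminin chains, 5 linker and anchor genes, 13 integrin alpha subunits and 7 integrin beta subunits. RNA was sequenced from mouse larynx (vocal fold) tissue dissected at E10.5 (embryonic day), when the embryos had 32 to 35 somites. The comparison is between 2 pools from embryos lacking Sonic hedgehog (Shh-/-, pools 1 and 2) and 2 pools from wild-type embryos (WT, pools 4 and 6), each pool holding 3 larynxes. The sample labels name the mutant line Shhtm1amc Shh+/-, while the series design and the study's methods call these embryos Shh-/-. The allele is a null carried in the germline on a Swiss Webster background, the strain of the WT pools, so Shh was missing in every tissue of the embryo and not only in the larynx.

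Basement membranes are thin sheets of extracellular matrix on which epithelia sit and which wrap vessels, nerves and muscle. Laminins are secreted trimers of an alpha, a beta and a gamma chain that polymerise into the first layer of the sheet. Nidogens, perlecan and agrin tie the laminin layer to the collagen IV network. Cells grip the sheet through dystroglycan and through integrins, which are pairs of an alpha and a beta subunit. The alpha subunit largely sets the ligand, and integrin beta 1 is the partner of most alpha subunits. In the embryonic foregut, where Shh is made by the epithelium and signals to the mesenchyme around it, a basement membrane lies between these layers.

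The 4 libraries held between 1372 and 3128 Mb of aligned bases, the lowest being Shh-/- pool 1, and 16432 to 17117 genes at 1 TPM or more. TPM is a read density per length of transcript, scaled to the same total in each library, so levels of different genes can be compared on it. Shh itself was at 10.4 and 10.8 TPM in Shh-/- and at 23.7 and 42.1 TPM in the WT pools, a log2 fold change of -1.50 (SE 0.28, adjusted p = 0.0895, limma). Transcript remaining from outside a deleted part would still count here, so this value checks the labels only in part. Ptch1, the Hedgehog receptor and a direct target of the pathway, fell from 57.8 and 55.1 TPM to 12.9 and 13.8 TPM (log2 fold change -1.997, adjusted p = 0.0319), a call that was lost with no filter on low values and when any 1 pool was left out. Gli1, a transcription factor and target of the pathway, was at 3.20 and 8.45 TPM in Shh-/- and at 41.7 and 32.9 TPM in WT, with an adjusted p of 0.0715 for its log2 fold change of -2.59. All fold changes below are Shh-/- minus WT on the log2(TPM + 1) scale, which understates the change of low genes, and each adjusted p is from limma with Benjamini-Hochberg adjustment over the 16972 genes with a mean of at least 1 TPM. With 2 pools against 2, an exact permutation test of a single gene cannot go below p = 0.33.

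None of the 35 genes passed the threshold of an adjusted p under 0.05, which 0.725% of all tested genes passed (123 of 16972). Over all genes, none was called with Shh-/- pool 1, Shh-/- pool 2 or WT pool 4 left out, and 4 were called higher and 12 lower without WT pool 6. The nearest were Itgb5, higher in the Shh-/- pools, and Itga8, lower in them. These were the only 2 of the 31 tested genes with an adjusted p under 0.10, a share of 6.45% beside 5.06% of all tested genes. The 4 genes left untested for low values were Itga7, Itga11, Itgb6 and Itgb7. Without the adjustment, 8 of the 31 were higher in Shh-/- at p under 0.05 (25.8%, beside 17.5% of all tested genes) and 3 were lower (9.68%, beside 7.22%). Both Shh-/- pools lay above both WT pools for 14 of the 31 (45.2%, beside 38.0% of all tested genes), below them for 8 (25.8%, beside 22.7%), and the pools overlapped for 9. The estimates were positive for 21 (67.7%, beside 58.3% of all tested genes) and negative for 10. The share of 58.3% is also the one to set beside the counts of positive estimates given below. The median log2 fold change of the 31 was 0.17, beside a median of 0.08 over all tested genes. With the libraries corrected for GC content and for length of transcript, the split was 16 positive and 15 negative, with a median of 0.05.

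**Figure D1:**
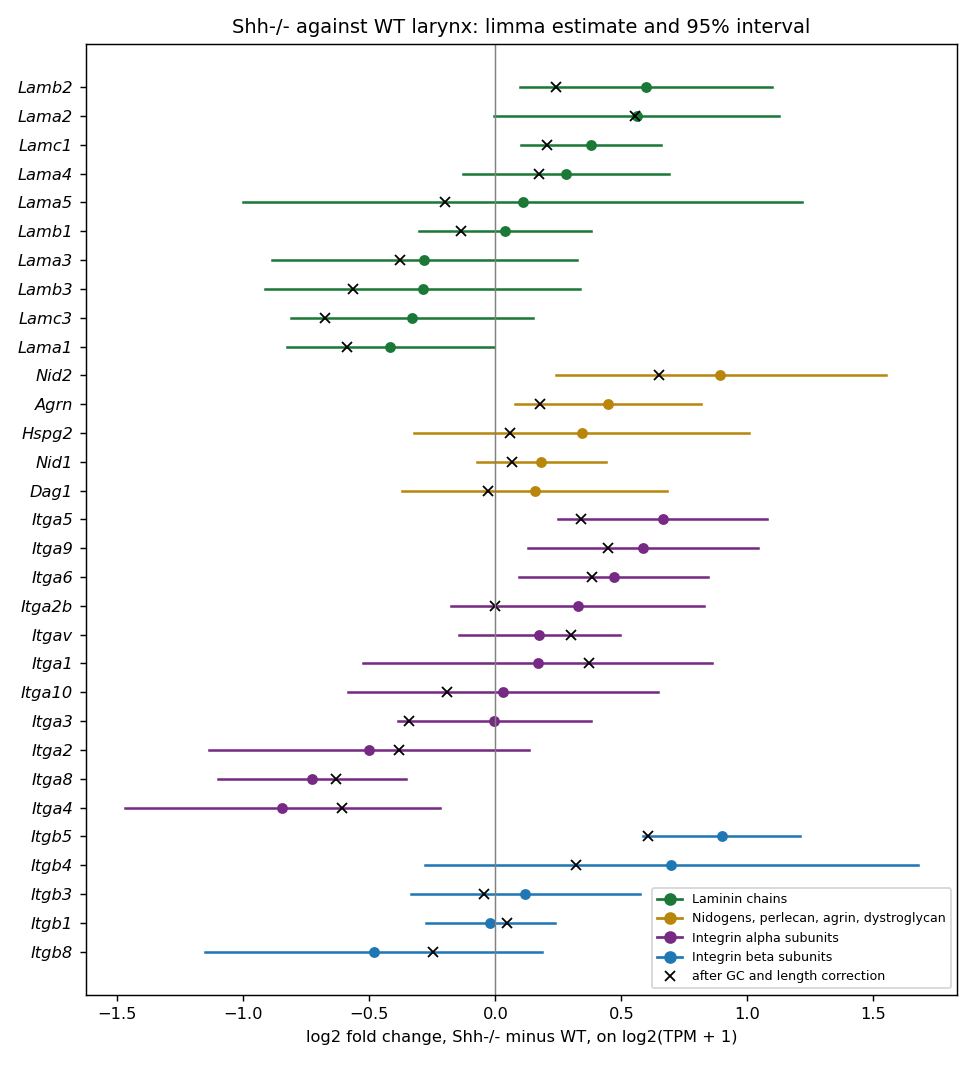
Log2 fold change of each tested gene, Shh-/- minus WT, on the log2(TPM + 1) scale (x axis); dots are limma estimates, lines their 95% intervals and crosses the estimate after GC and length correction, coloured by class. Itgb5 sits farthest to the right of the beta subunits at 0.90, Itga8 and Itga4 sit at -0.73 and -0.85, and Itgb1 sits at -0.02 with a short interval.

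The sequences just upstream of Itgb5 and Itga8 are shown because these are the genes nearest the threshold in either direction. Each is the 250 bases before the gene's start on its own strand, from RefSeq on build GRCm38.p6, with GC boxes (GGGCGG, either strand) in capitals. The Itgb5 stretch is chr16:33829415-33829664 on the plus strand, and the Itga8 stretch is chr2:12301945-12302194 on the minus strand.
Itgb5: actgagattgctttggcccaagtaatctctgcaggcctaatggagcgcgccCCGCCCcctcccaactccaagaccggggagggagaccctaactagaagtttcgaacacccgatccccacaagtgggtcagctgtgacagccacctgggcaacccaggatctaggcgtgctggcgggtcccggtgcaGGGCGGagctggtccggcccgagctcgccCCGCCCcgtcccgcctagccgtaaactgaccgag
Itga8: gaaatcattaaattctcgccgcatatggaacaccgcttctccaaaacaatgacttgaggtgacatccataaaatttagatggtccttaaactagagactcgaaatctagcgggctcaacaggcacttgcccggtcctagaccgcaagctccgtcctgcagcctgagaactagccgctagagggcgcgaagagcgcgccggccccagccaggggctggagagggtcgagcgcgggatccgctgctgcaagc
The Itgb5 stretch held 3 GC boxes and was 65.2% G or C, and the Itga8 stretch held none and was 56.4% G or C. Of the 35 genes, 25 matched the promoter table, with 30 promoters in all. A GC box was in 14 of those 30 and in 32.7% of the 32851 promoters of the table. Not all of the 30 lie at the start of the quantified gene. A Lamb3 window, the Itga9 window and the Lama2 window lay 94295, 105002 and 2816 bases from it, and none of these held a GC box. The letters TGGGTGGTC, a core motif of the Hedgehog-responsive GLI factors, were in none of the 30 on either strand and in 0.225% of all promoters, so their absence from these windows says nothing on GLI binding elsewhere.

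Among the laminin alpha chains, Lama1, the chain of the earliest embryonic basement membranes, was lower in the Shh-/- pools. Lama1 (chr17:67697265-67822645, mm10) was at 9.72 and 9.22 TPM in Shh-/- and at 14.2 and 11.9 TPM in the WT pools, so the groups did not overlap. Its log2 fold change was -0.42 (SE 0.16, 95% interval -0.83 to -0.01, adjusted p = 0.198), between -0.53 and -0.30 when each pool was left out in turn. Lama2, the chain of muscle and nerve basement membranes, had the opposite order, with 6.41 and 5.42 TPM in Shh-/- and 3.08 and 4.36 TPM in WT. Lama4, a chain of vessel walls, was at 23.9 and 22.8 TPM in Shh-/- and 16.9 and 21.4 TPM in WT, again without overlap. The adjusted p of Lama2 was 0.205 and that of Lama4 was 0.324.

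Lama5, the most widespread alpha chain of epithelia and the most abundant here in every pool but Shh-/- pool 2, where Lama4 was higher, split the pools within each genotype. It was at 46.7 and 21.3 TPM in Shh-/- and at 37.7 and 22.6 TPM in the WT pools, so that the first pool of each pair was the high one. Its 95% interval ran from -1.0 to 1.22, and its estimate of 0.11 became -0.44 or 0.66 depending on which pool was left out. Hspg2 and Itgb4 had a like order of pools, and these 3 genes have the highest GC content of the 35 genes (59.9% for Lama5, 60.9% for Hspg2 and 60.0% for Itgb4). Lamb2, at 58.8%, also had the first pool of each pair higher, whereas Lamc3 (58.4%) and Itga2b (58.2%) did not. Itgb6 had that order at a GC content of 44.1%. Lama1, Lamc1, Nid2, Agrn, Itga3, Itga5 and Itgb5 also had it, at 53.0% to 57.9%, while Itga7, Lamb3, Itga11 and Itga10 in that range did not. The part of GC content in the spread of these genes was not tested. Lama3, an epithelial chain, was near the lower limit of the test at 1.05 and 1.24 TPM in Shh-/- and 1.34 and 1.90 TPM in WT.

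The beta and gamma chains held the highest laminin levels. Lamb1, the beta chain of most embryonic laminins, was at 82.5 and 74.2 TPM in Shh-/- and at 69.8 and 83.2 TPM in WT, with overlap and a 95% interval of -0.30 to 0.38 for its log2 fold change. Lamb2, a beta chain of vessels, muscle and nerve endings, was at 51.1 and 42.8 TPM in Shh-/- and at 35.8 and 26.0 TPM in WT. Lamb2 thus had a log2 fold change of 0.60 (adjusted p = 0.161), and of 0.24 after GC and length correction. Lamc1, the gamma chain of nearly every laminin, was at 61.3 and 57.6 TPM in Shh-/- and at 46.7 and 44.2 TPM in WT, a log2 fold change of 0.38 (adjusted p = 0.140) and of 0.21 after the correction. Both genes had their Shh-/- pools above their WT pools. Lamb3, which pairs with Lama3 in the laminin of stratified epithelia, was at 1.0 and 1.28 TPM in Shh-/- and at 1.32 and 1.93 TPM in WT. Lamc3, a rarer gamma chain, was at 3.14 and 3.78 TPM in Shh-/- and at 4.53 and 4.66 TPM in WT. Lama3, Lamb3 and Lamc3 were each lower in both Shh-/- pools than in both WT pools, with adjusted p of 0.476, 0.480 and 0.322. Over the 10 chains 6 estimates were positive and 4 negative, and their median of 0.07 became -0.06 under median centring and -0.17 after GC and length correction.

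**Figure D2:**
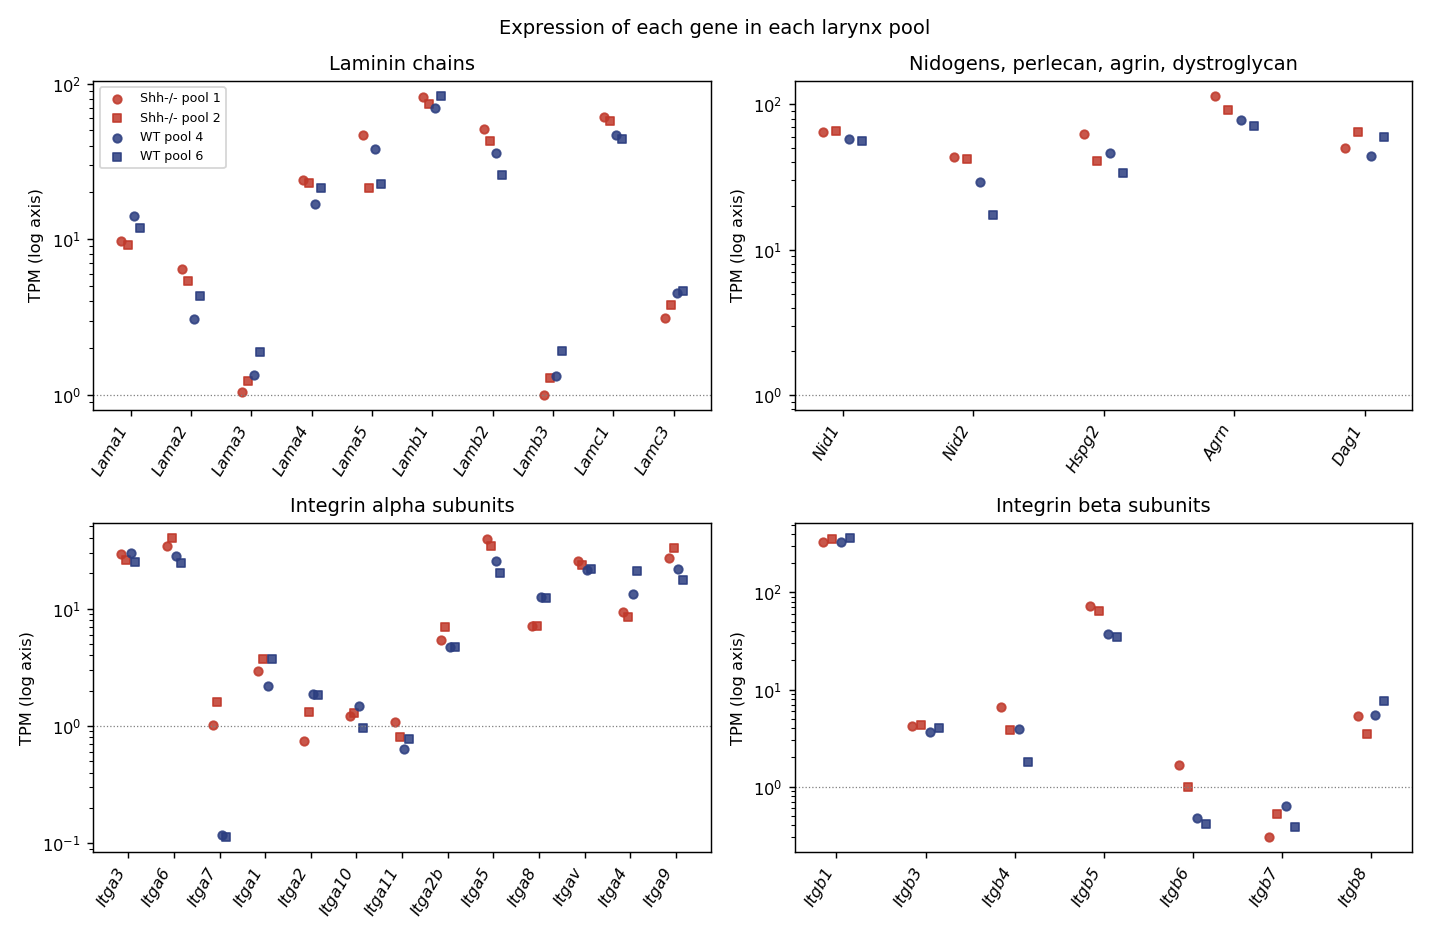
TPM of each of the 35 genes (y axis, log scale) in each of the 4 larynx pools, with Shh-/- pools in red and WT pools in blue and the dotted line at 1 TPM. The Itgb5 and Itga8 pools of a genotype sit close together and apart from the other genotype, while the pools of Lama5 and Hspg2 split within both genotypes.

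Both nidogens, which bridge laminin and collagen IV, had their Shh-/- pools above their WT pools. Nid2 (chr14:19751257-19811787) was at 43.4 and 41.8 TPM in Shh-/- and at 29.1 and 17.3 TPM in the WT pools. The means were 42.6 ± 1.14 and 23.2 ± 8.33 TPM (SD, n = 2 each), the spread lying mainly between the WT pools. Its log2 fold change was 0.89 (SE 0.25, adjusted p = 0.140), 0.65 after GC and length correction, and between 0.54 and 1.25 with each pool left out. Nid1 was at 64.5 and 65.2 TPM in Shh-/- and at 58.1 and 56.0 TPM in WT, a log2 fold change of 0.18 (adjusted p = 0.312). Nid1 was the more abundant nidogen in all 4 pools, and the ratio of Nid2 to Nid1 was 0.67 and 0.64 in Shh-/- and 0.50 and 0.31 in WT.

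Of the heparan sulphate proteoglycans, Agrn (agrin, which binds laminin and dystroglycan) was at 114 and 91.8 TPM in Shh-/- and at 78.5 and 71.5 TPM in WT, without overlap. The log2 fold change of Agrn was 0.45 (adjusted p = 0.159) and 0.18 after GC and length correction. Hspg2 (perlecan) was at 62.2 and 41.0 TPM in Shh-/- and at 46.5 and 33.8 TPM in WT, with overlap. Dag1, which encodes both chains of the laminin receptor dystroglycan, also overlapped, with 50.4 and 64.6 TPM in Shh-/- and 43.9 and 59.6 TPM in WT. All 5 linker and anchor estimates were positive, with a median of 0.34. That median was 0.07 after GC and length correction, where the estimate of Dag1 became -0.03.

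Among the laminin-binding integrin alpha subunits, the Itga6 pools of Shh-/- lay above those of WT and the Itga3 pools overlapped. Itga6, a subunit of basal epithelial cells, endothelium and neural progenitors, was at 33.8 and 39.8 TPM in Shh-/- and at 28.1 and 24.5 TPM in WT. The estimate for Itga6 was 0.47 (adjusted p = 0.154) and 0.38 after GC and length correction. Itga3, an epithelial laminin receptor, was at 29.1 and 25.7 TPM in Shh-/- and at 29.9 and 25.1 TPM in WT. The 95% interval of Itga3 ran from -0.39 to 0.38 and its estimate of 0.00 became -0.34 after the correction. Itga7, the laminin receptor of muscle, was under the limit of the test at 1.01 and 1.59 TPM in Shh-/- and 0.12 and 0.11 TPM in WT. With no filter on low values its log2 fold change was 1.03 (SE 0.17, adjusted p = 0.167), and its mean TPM was 11.3-fold higher in Shh-/-.

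The 4 collagen-binding alpha subunits were the lowest class. Itga1 was at 2.97 and 3.75 TPM in Shh-/- and 2.18 and 3.70 TPM in WT, and its locus contains Pelo, a ubiquitously expressed gene on the same strand, so reads of the pair may not be fully separated. Itga2, a collagen receptor of platelets and epithelia, was at 0.75 and 1.33 TPM in Shh-/- and 1.87 and 1.84 TPM in WT, without overlap (adjusted p = 0.274). Itga10 and Itga11, known from cartilage and from fibroblasts, were at 0.96 to 1.49 TPM and at 0.64 to 1.07 TPM over the 4 pools. For Itga10 the pools overlapped, while the Itga11 pools of Shh-/- were at 1.07 and 0.80 TPM against 0.64 and 0.77 TPM in WT, a gap of 0.03 TPM.

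The subunits that bind the RGD motif of fibronectin, vitronectin and nephronectin lay on both sides of no difference. Itga8 (chr2:12106632-12301922), the nephronectin receptor of mesenchyme, was at 7.09 and 7.11 TPM in Shh-/- and at 12.4 TPM in both WT pools. The means were 7.10 ± 0.02 and 12.4 ± 0.05 TPM (SD, n = 2 each), 1.75-fold higher in WT, and the pools of each genotype were nearly alike. Its log2 fold change was -0.73 (SE 0.14, 95% interval -1.10 to -0.35, adjusted p = 0.0957), and between -0.87 and -0.63 over the processing alternatives. Itga5, the main fibronectin receptor, had the opposite order at 38.9 and 34.2 TPM in Shh-/- and 25.4 and 20.2 TPM in WT. Itga5 had a log2 fold change of 0.66 (95% interval 0.25 to 1.08, adjusted p = 0.118), and of 0.34 after GC and length correction. Itgav, which pairs with several beta subunits, was at 25.5 and 23.4 TPM in Shh-/- and at 21.4 and 21.7 TPM in WT (adjusted p = 0.411). Itga2b, a subunit of megakaryocytes and platelets, was at 5.36 and 7.02 TPM in Shh-/- and at 4.69 and 4.70 TPM in WT (adjusted p = 0.346). The estimate of Itga2b was 0.33 before the correction and 0.00 after it.

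Itga4 and Itga9, related subunits that bind fibronectin, VCAM-1 and other ligands outside the RGD class, were on opposite sides. Itga4 (chr2:79255426-79333123), a subunit of neural crest and blood cells, was at 9.40 and 8.43 TPM in Shh-/- and at 13.4 and 21.01 TPM in WT. Its log2 fold change was -0.85 (adjusted p = 0.141) and -0.61 after GC and length correction. Itga9 (chr9:118606690-118901003), which also binds tenascin-C and osteopontin, was at 26.8 and 33.0 TPM in Shh-/- and at 21.7 and 17.5 TPM in WT. The estimate for Itga9 was 0.59 (adjusted p = 0.150) and 0.45 after the correction. Neither gene's pools overlapped between genotypes. Over the 11 tested alpha subunits 7 estimates were positive and 4 negative, and their median of 0.17 became 0.00 after GC and length correction.

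Itgb1, the common beta subunit, was by far the most abundant of the 35 genes and did not differ detectably. It was at 328 and 351 TPM in Shh-/- and at 327 and 362 TPM in the WT pools. The estimate was -0.02 (SE 0.10, adjusted p = 0.913) with a 95% interval of -0.28 to 0.24. Itgb5 (chr16:33829665-33949153), a partner of Itgav in vitronectin binding, was at 72.4 and 63.8 TPM in Shh-/- and at 37.4 and 34.7 TPM in WT. The means were 68.1 ± 6.04 and 36.0 ± 1.93 TPM (SD, n = 2 each), 1.89-fold higher in Shh-/-. The log2 fold change of Itgb5 was 0.90 (SE 0.12, 95% interval 0.59 to 1.21, adjusted p = 0.0602). It was between 0.61 and 0.92 over the processing alternatives, with adjusted p from 0.0571 to 0.151, and between 0.81 and 0.99 with each pool left out.

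The other beta subunits were low. Itgb8, an Itgav partner that activates TGF-beta, was at 5.31 and 3.50 TPM in Shh-/- and at 5.49 and 7.57 TPM in WT, so both Shh-/- pools were lower (adjusted p = 0.305). Itgb4, the hemidesmosome partner of Itga6, was at 6.63 and 3.79 TPM in Shh-/- and at 3.94 and 1.81 TPM in WT, with overlap. Itgb3, the partner of Itga2b on platelets, was at 4.17 and 4.32 TPM in Shh-/- and at 3.69 and 3.98 TPM in WT (adjusted p = 0.695). Itgb6, an epithelial Itgav partner, was too low to be tested, at 1.67 and 1.0 TPM in Shh-/- and 0.47 and 0.41 TPM in WT. With no filter its log2 fold change was 0.69 (SE 0.20, adjusted p = 0.239). Itgb7, a leukocyte subunit, was at 0.30 to 0.63 TPM in the 4 pools, with overlap. Of the 5 tested beta subunits 3 estimates were positive and 2 negative, and their median of 0.12 became -0.01 under median centring.

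Lamb1, Lamc1 and Itgb1 made up most of their classes in all 4 pools, while the leading integrin alpha subunit was Itga3 in both WT pools, Itga5 in Shh-/- pool 1 and Itga6 in Shh-/- pool 2. Of the summed TPM of the alpha chains, Lama5 made up 53.2% and 35.5% in Shh-/- and 51.5% and 36.4% in WT, while Lama1 made up 11.1% and 15.4% in Shh-/- and 19.3% and 19.1% in WT. Lama4 made up 27.2% and 38.1% in Shh-/- and 23.1% and 34.4% in WT, and so exceeded Lama5 in Shh-/- pool 2. Lamc1 made up 90.5% to 95.1% of the gamma chains. Lamb2 made up 38.0% and 36.2% of the beta chains in Shh-/- and 33.5% and 23.4% in WT. Among the integrin beta subunits Itgb1 made up 78.4% and 82.0% in Shh-/- and 86.4% and 88.1% in WT, and Itgb5 made up 17.3% and 14.9% in Shh-/- and 9.88% and 8.43% in WT. Among the integrin alpha subunits Itga3 made up 15.9% and 13.7% in Shh-/- and 18.3% and 16.2% in WT, and Itga6 made up 18.5% and 21.2% in Shh-/- and 17.2% and 15.9% in WT. Itga5 made up 21.3% and 18.3% in Shh-/- and 15.6% and 13.1% in WT, whereas Itga8 made up 3.87% and 3.80% in Shh-/- and 7.62% and 8.01% in WT. The summed TPM of the 35 genes was 1223 and 1160 in Shh-/- and 1029 and 1026 in WT.

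**Figure D3:**
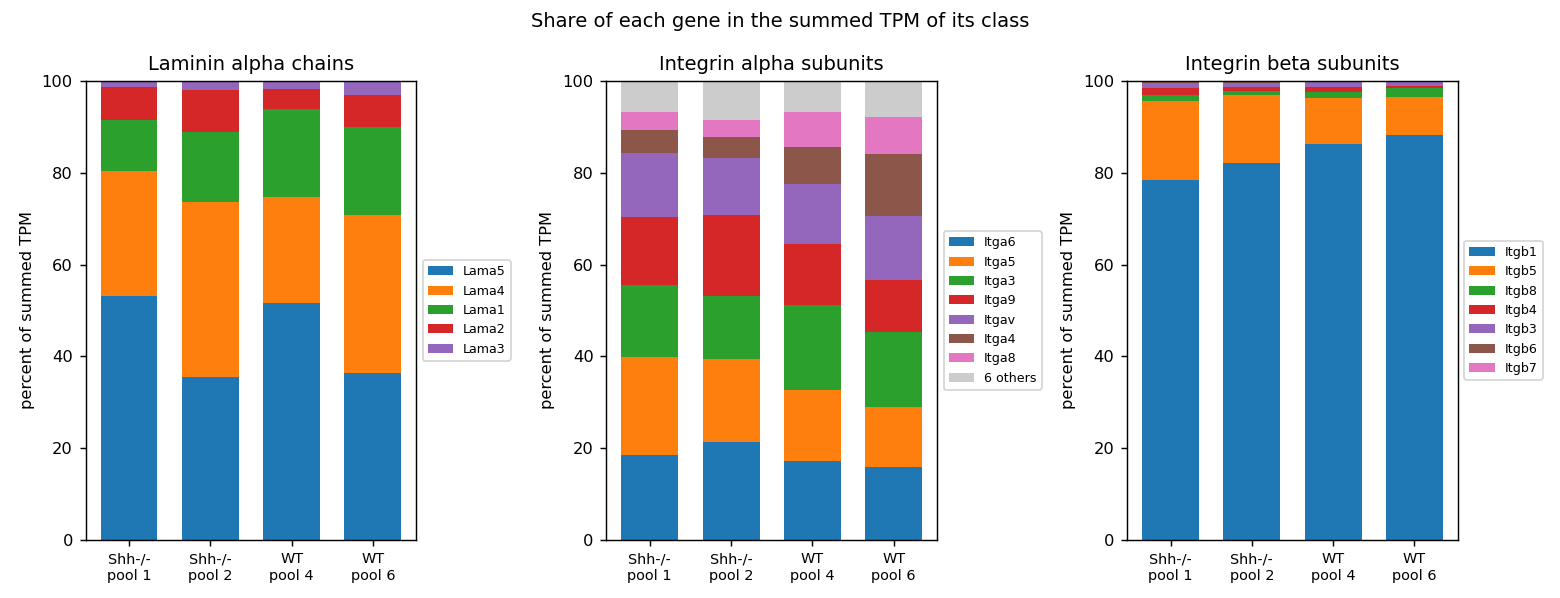
Share of each gene in the summed TPM of its class (y axis, percent) in each larynx pool, for the laminin alpha chains, the integrin alpha subunits and the integrin beta subunits. Itgb1 fills 78.4% to 88.1% of the beta subunit bars, and the Itgb5 band is wider in the Shh-/- pools.

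Ratios within a pool do not depend on the scaling of that pool between libraries, and the pairs given here were chosen after their values had been seen, so they are descriptions with no test. The ratio of Itgb5 to its partner Itgav was 2.84 and 2.73 in Shh-/- and 1.75 and 1.60 in WT. The ratio of Itga8 to Itga5 was 0.18 and 0.21 in Shh-/- and 0.49 and 0.61 in WT. That of Itga4 to Itga9 was 0.35 and 0.26 in Shh-/- and 0.62 and 1.20 in WT. None of these 3 ratios overlapped between genotypes. For Itga8 to Itga5 and for Itga4 to Itga9 this was fixed in advance, because those genes had opposite orders of pools without overlap. The ratio of Lama1 to Lamc1 was 0.16 in both Shh-/- pools and 0.30 and 0.27 in WT. Its lack of overlap was likewise fixed by the opposite orders of the Lama1 and Lamc1 pools. The ratio of Lama5 to Lamc1 overlapped, at 0.76 and 0.37 in Shh-/- and 0.81 and 0.51 in WT. Lamb3 and Lama3, chains of the same trimer, stayed near equal TPM in every pool, with ratios of 0.95 to 1.04.

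Of 3 lists of genes that act with these, 1 gene passed the test, which 0.725% of all tested genes passed. Among 25 tested ligands and other basement membrane genes (27 listed), Frem1, a matrix protein of the Fras1 complex under embryonic epithelia, fell from 26.6 and 30.0 TPM in WT to 10.7 and 11.5 TPM in Shh-/-. Its log2 fold change was -1.27 (SE 0.14, adjusted p = 0.0466), and the call was lost with no filter, with a pseudocount of 0.1, without the trend in limma and with any pool left out. The estimates of that list were positive for 16 and negative for 9, with a median of 0.26. Sparc, a collagen-binding matrix protein, was at 412 and 391 TPM in Shh-/- and at 266 and 253 TPM in WT (adjusted p = 0.0633). Spp1, which encodes osteopontin, was at 9.31 and 7.87 TPM in Shh-/- and at 3.34 and 1.82 TPM in WT (adjusted p = 0.0887). Other integrin ligands named above went both ways, and none passed the test. Tnc (tenascin-C) and Vtn (vitronectin) were lower in both Shh-/- pools, with log2 fold changes of -0.39 and -0.36. Npnt (nephronectin), Fn1 (fibronectin) and Vcam1 were higher in both, at 0.26, 0.895 and 0.96.

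Of the 23 integrin adaptors and kinases, all tested, 17 estimates were positive and 6 negative and none passed the test. Their median was 0.37, and 0.11 after GC and length correction. Ilk, the integrin-linked kinase, was nearest at 152 and 137 TPM in Shh-/- and 104 and 93.7 TPM in WT (adjusted p = 0.0990). Tln2, a talin that links integrins to actin, was at 18.6 and 16.6 TPM in Shh-/- and at 11.3 and 10.49 TPM in WT (adjusted p = 0.107), and Parvb, an Ilk partner, was at 37.1 and 36.0 TPM in Shh-/- and at 23.98 and 17.2 TPM in WT (adjusted p = 0.108). All 3 had their Shh-/- pools above their WT pools, but they were named for having the lowest adjusted p of the list. That order held for 11 of the 23 (47.8%, beside 38.0% of all tested genes).

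Of the 20 genes that bind or glycosylate dystroglycan, 19 were tested, with 12 positive and 7 negative estimates, a median of 0.11 and none past the test. Dmd, which encodes dystrophin, was at 1.92 and 3.66 TPM in Shh-/- and at 7.17 and 12.6 TPM in WT, a log2 fold change of -1.51 (adjusted p = 0.114). Pomgnt1, an enzyme of the laminin-binding glycan, had a log2 fold change of 0.52 (adjusted p = 0.137).

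Marker genes of the cell types in the tissue also differed between the genotypes, and in bulk tissue fewer cells of a type and less RNA per cell cannot be told apart. Over all tested genes, 0.725% passed the test and 58.3% had a positive estimate. Both Shh-/- pools lay above both WT pools for 38.0% of all tested genes and below them for 22.7%. Neuronal markers summed to 914 and 990 TPM in Shh-/- and to 326 and 273 TPM in WT, with 6 of 12 past the test, all higher. Both Shh-/- pools lay above both WT pools for 11 of them. Isl1 had the opposite order, at 68.3 and 57.3 TPM in Shh-/- and at 93.1 and 115.7 TPM in WT. Skeletal and cardiac muscle markers summed to 185 and 234 TPM in Shh-/- and to 103 TPM in both WT pools. All 9 tested estimates were positive and Myh7 passed the test. Both Shh-/- pools lay above both WT pools for 6 of the 9, and the pools of Myod1, Myog and Des overlapped. Beside these markers, Itga7, the muscle laminin receptor, and Lama2 were higher in both Shh-/- pools, while Dmd was lower in them. Itga7 was too low to be tested, and neither Lama2 nor Dmd passed the test. Endothelial markers summed to 466 and 553 TPM in Shh-/- and to 324 and 300 TPM in WT, with both Shh-/- pools above both WT pools for 9 of 10 and Tie1 past the test. Itga5, Itga6, Lama4 and Lamb2, all known from vessels, also had both Shh-/- pools above both WT pools, but none of these 4 passed the test. That order held for 14 of the 31 tested laminin and integrin set genes. After GC and length correction the 4 estimates were 0.34, 0.38, 0.17 and 0.24. These 4 genes were named with their order of pools known. The more widespread Lama5, Hspg2, Lamb1 and Itgb1, which vessels share with other tissues, overlapped between the genotypes, as did Itga1. The part of any of these cell types in the integrin and laminin values was not tested.

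Markers of neural crest and glial precursors summed to 221 and 176 TPM in Shh-/- and to 153 and 123 TPM in WT, with 8 of 9 tested estimates positive and Ngfr higher past the test (log2 fold change 1.75, adjusted p = 0.0470). Both Shh-/- pools lay above both WT pools for 7 of the 9, and the Cdh19 pools overlapped. Ets1 was lower in both, at 50.8 and 33.0 TPM in Shh-/- and at 63.3 and 54.7 TPM in WT. Itga4, also known from neural crest, had its Shh-/- pools below its WT pools, as Ets1 had, and did not pass the test. Epithelial markers summed to 815 and 707 TPM in Shh-/- and to 739 and 764 TPM in WT, with 8 positive and 7 negative estimates. Both Shh-/- pools lay above both WT pools for 4 of the 15 (Epcam, Krt8, Krt18 and Cldn7) and below them for 6. The pools of the other 5, Sox2 among them, overlapped. Within that list Foxa2, a foregut endoderm factor, was at 5.34 and 9.12 TPM in Shh-/- and at 29.2 and 39.8 TPM in WT (adjusted p = 0.0602), and Nkx2-1, a ventral foregut factor, was at 6.16 and 3.61 TPM in Shh-/- and at 15.9 and 17.9 TPM in WT. Mesenchymal markers summed to 1166 and 1059 TPM in Shh-/- and to 915 and 913 TPM in WT, with 6 positive and 6 negative estimates and with Twist1 higher and Foxf2 lower past the test. Foxf2 was at 0.24 and 1.24 TPM in Shh-/- and at 20.3 and 20 TPM in WT, and the related Foxf1 was at 0.85 and 9.57 TPM in Shh-/- and at 72.3 and 64.6 TPM in WT. Col1a2 and Prrx1 had the opposite order, with log2 fold changes of 0.97 and 1.14 (adjusted p = 0.0602 and 0.0715). Megakaryocyte markers, read beside Itga2b and Itgb3, summed to 29.4 and 37.9 TPM in Shh-/- and to 29.5 and 36.1 TPM in WT. Macrophage and leukocyte markers summed to 33.3 and 25.9 TPM in Shh-/- and to 22.7 and 23.8 TPM in WT, with Ptprc, the pan-leukocyte marker, at 0.13 to 0.44 TPM in the 4 pools. None of the megakaryocyte, leukocyte or epithelial markers passed the test.

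**Figure D4:**
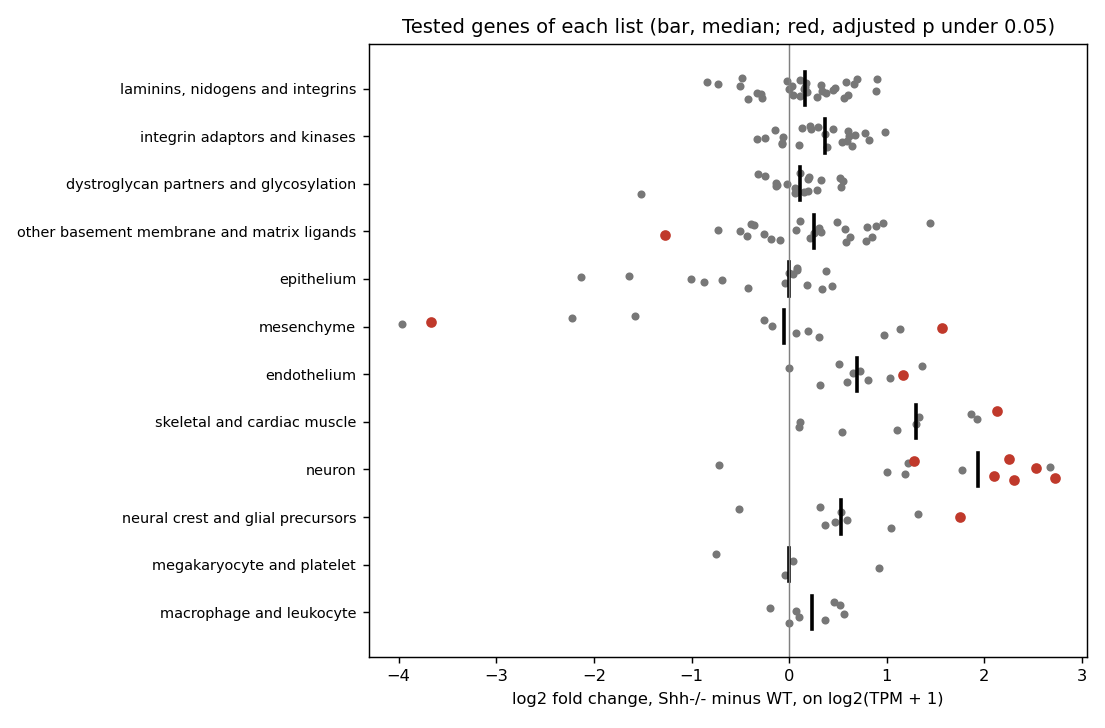
Log2 fold change, Shh-/- minus WT on the log2(TPM + 1) scale (x axis), of every tested gene of the laminin and integrin set, of the 3 related lists and of the marker lists; grey dots are genes, bars are medians and red dots passed an adjusted p of 0.05. The laminin and integrin genes lie between -0.85 and 0.90 with a median of 0.17 and no red dot, while the neuronal markers have a median of 1.93 and 6 red dots.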

How the data were processed

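Polyadenylated RNA from 4 pools of 3 larynxes was sequenced with a strand-specific kit, and per the labels the RNA integrity numbers were 7.7 to 9. Per the submitters' processing notes and the study's methods, the authors aligned reads to mm10 with HISAT2 2.1.0 and quantified genes with StringTie 1.3.6; the gene annotation release is not given in the sources used here. The deposited tables give, for each gene, TPM, FPKM and read coverage as the authors' quantification wrote them. Read counts were not used here. TPM keeps no depth, so aligned bases per library were estimated from the ratio of the deposited coverage to the deposited FPKM, and the precision of a value is the spread of 2 pools.

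TPM was summed per gene identifier, and log2(TPM + 1) was fitted with limma 3.58.1 in R 4.3.3 (empirical Bayes with a trend, no covariates) for genes with a mean of at least 1 TPM, with a threshold of 0.05 on the Benjamini-Hochberg adjusted p. The procedure was also run on data simulated from the means and spread of these pools, and the outcome is not reported here. Pools of a genotype came from different embryos, but nothing states separate litters, so p-values measure the spread between these pools. The genes and lists were chosen with earlier results of these data known. All 35 genes are named. Those with an adjusted p under 0.10 and Itgb1, Lama1 and Nid2 are given with full statistics, and the related lists by their calls or their 3 lowest adjusted p, of which 1 gene is not reported here. Sparc, Spp1, the other ligand genes given with values, the marker genes named singly, statistics given for further genes and the ratios were chosen after their values were seen. Alternatives were no filter, a filter at 5 TPM, a pseudocount of 0.1, quantile normalization, median centring, FPKM, no trend, a threshold of 0.10, a GC and length correction (a natural spline of 5 degrees of freedom for either covariate over 16887 genes, taken from GENCODE M21 on the same genome build) and leaving out each pool. Where a pool was left out, its lone partner was assumed to vary like the other genotype. Promoters are from RefSeq on GRCm38.p6.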

Additional observations from a re-analysis of the deposited data

How the results depend on the processing

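No alternative at a threshold of 0.05 called any of the 35 genes. Over 43 single-gene results and 550 comparisons with alternatives, 505 kept their direction and side of the threshold, 12 lost a call (Ptch1 or Frem1), 7 gained one (all at a threshold of 0.10, Itgb5 and Itga8 among them) and 26 changed sign. The genes that changed sign had a log2 fold change of at most 0.33 in size.

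Over all genes 95 were called higher and 28 lower. The counts were 0 and 0 with no filter (5011 genes at an unadjusted p under 0.05), 63 higher with a filter at 5 TPM, 53 and 16 with a pseudocount of 0.1, 54 higher after GC and length correction, and 670 and 188 at a threshold of 0.10, where 1 of the 35 genes was called higher and 1 lower. With each pool left out they were 0 to 4 higher and 0 to 12 lower, with 2070 to 3761 genes at an unadjusted p under 0.05. The median over all genes was 0.08, and -0.05 under median centring.

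The laminin median of 0.07 was 0.19 with a filter at 5 TPM, -0.055 under median centring and -0.17 after GC and length correction, and -0.12 to 0.21 with each pool left out. The linker median of 0.34 was 0.065 after that correction, and 0.29 to 0.60 with each pool left out. The integrin alpha median of 0.17 was 0.25 with a filter at 5 TPM, 0.041 under quantile normalization, 0.039 under median centring, 0.11 on FPKM and -0.001 after the correction, and 0.082 to 0.183 with each pool left out. The integrin beta median of 0.12 was -0.02 with a filter at 5 TPM, 0.14 with a pseudocount of 0.1, 0.001 under quantile normalization, -0.011 under median centring, 0.075 on FPKM and 0.047 after the correction, and 0.073 to 0.161 with each pool left out.

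Estimates that changed sign were Itga10 -0.071, Itgb1 0.001 and Itgb3 -0.02 under quantile normalization; Lama5 -0.02, Lamb1 -0.09, Itga10 -0.10 and Itgb3 -0.011 under median centring; and Lama5 -0.20, Lamb1 -0.14, Dag1 -0.03, Itga10 -0.19, Itga2b -0.001, Itgb1 0.047 and Itgb3 -0.046 after the GC and length correction. With each pool left out, Lama5 ran from -0.44 to 0.66, Lamb1 from -0.086 to 0.163, Dag1 from -0.062 to 0.371, Itga3 from -0.13 to 0.12, Itga1 from -0.12 to 0.45, Itga10 from -0.14 to 0.20 and Itgb1 from -0.094 to 0.054. The cause of these changes was not tested. No paired analysis was possible because the pools of the 2 genotypes share no replicate number.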
